A study of Homo sapiens with 4 samples.

Results

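The Krüppel-like factors (KLF) are a family of transcription factors, and the genes described here are 10 of its members, KLF2, KLF3, KLF4, KLF6, KLF7, KLF9, KLF10, KLF11, KLF12 and KLF13. They were chosen by symbol, with earlier results of these data known, and each had a row of its own among the 28814 genes of the count table. KLF1, KLF5 and KLF16 had rows as well and are given further below as other KLF genes. The samples were RNA from the established line 697, derived from human B-cell acute lymphoblastic leukaemia, taken after 24 h with 1 µM MZ1 or with an equal volume of the solvent DMSO. MZ1 is a bifunctional degrader that binds BET bromodomain proteins at one end and the ubiquitin ligase VHL at the other. There were 2 DMSO libraries (16005427 and 16488005 counted reads) and 2 MZ1 libraries (14544789 and 14246367). All 4 came from this 1 line, and the labels do not say whether replicates were separate cultures, so the p-values measure a spread that may be technical.

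Krüppel-like factors bind GC-rich and CACCC-type DNA through zinc fingers at the C-terminal end, and differ mainly in the N-terminal part that recruits partners. KLF2, KLF4, KLF6 and KLF7 form a group that often activates transcription, KLF3 and KLF12 recruit the CtBP corepressors, and KLF9, KLF10, KLF11 and KLF13 recruit the SIN3 corepressor and its histone deacetylases. In lymphocytes KLF2 is best known for holding cells at rest and for controlling their homing, and several members can be switched on quickly by growth factors or stress.

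Of the 10 members, 7 rose with MZ1, 2 fell and 1 did not pass (threshold 0.05 on Benjamini-Hochberg adjusted p-values over 16862 genes, from the quasi-likelihood test of edgeR). KLF2 rose 9.15-fold from a very low level, and KLF6, KLF7 and KLF10 rose 2.13-fold, 2.05-fold and 1.74-fold. KLF11 fell 5.999-fold and KLF4 fell 4.18-fold. In bulk RNA such as this, fewer cells of a kind and less RNA per cell cannot be told apart. The called share of all tested genes was 84.2%, with 42.8% higher and 41.3% lower, so a count of 9 called members of 10 is near that background. At least 2-fold changes were called in 3 members upward and 2 downward, where 29.0% of all tested genes were called higher by that much and 26.2% lower. The MZ1 and DMSO libraries did not overlap in CPM (counts per 1e6 reads, TMM-normalised) for any member, as was the case for 91.3% of all tested genes. The median log2 fold change of the members (MZ1 over DMSO) was 0.57 and that of all tested genes 0.05.

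**Figure D1:**
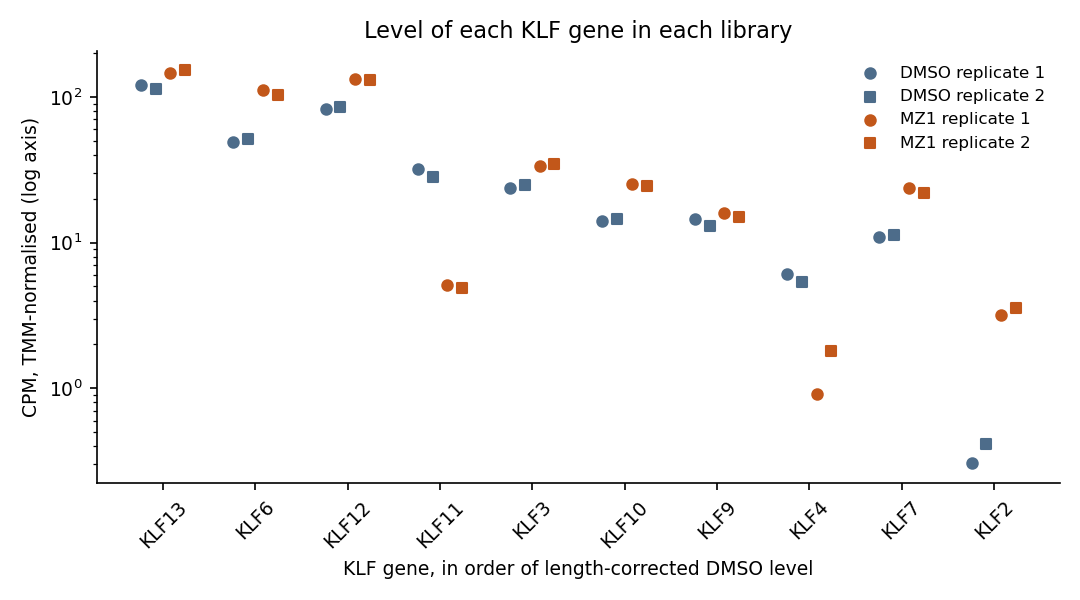
TMM-normalised CPM of each KLF gene in the 4 libraries, on a log axis, with 1 point per library. The MZ1 points lie above the DMSO points for 8 genes and below them for KLF11 and KLF4, and KLF2 is the lowest gene with DMSO at 0.31 and 0.41 CPM.

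The sizes of the smaller changes depend on how libraries are scaled, and the labels mention no spike-in. With libraries scaled by their length-corrected totals, the scaling behind TPM, all fold changes shifted by a median of −0.33 on the log2 scale. Then 5 members were higher and 2 lower, where 5992 of all 16862 tested genes were called higher (35.5%) and 8180 lower. KLF13 (0.02) and KLF3 (0.17) were no longer called, and KLF9 turned to −0.16. With upper-quartile scaling the shift was 0.27 and KLF9 was called higher as well (0.44). KLF2, KLF6, KLF7, KLF10 and KLF12 were called higher, and KLF4 and KLF11 lower, under each of these scalings. Each scaling is relative to the other reads of a library, so these directions are not amounts per cell, which were not measured.

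The promoters of the 4 members with the largest changes are shown, since 2 of these genes rose (KLF2, KLF6) and 2 fell (KLF4, KLF11). The sequences are RefSeq's (GRCh38.p14), which held 15 windows for 8 of the 10 members and none for KLF3 and KLF10. Each runs 5′ to 3′ on the gene's strand and begins 250 bases before a RefSeq start. It stops where an exon of the gene in GENCODE 29 begins, so KLF2 (plus strand, chr19:16324576-16324816) is given over 241 bases, KLF4 (minus strand, chr9:107489770-107490019) over 250, KLF6 (minus strand, chr10:3785282-3785459) over 178 and KLF11 (plus strand, its second RefSeq start, chr2:10043971-10044174) over 204. The annotated span of KLF4 in GENCODE reaches beyond its window, to 107490482. That of KLF11 begins at 10042849, so the printed KLF11 stretch lies inside the annotated gene. The window of its first RefSeq start begins within an exon and is not printed. Capitals mark matches, on either strand, to the GC box GGGCGG, the CACCC box, the CCAAT box, the E-box CACGTG and the MEF2 consensus.
KLF2: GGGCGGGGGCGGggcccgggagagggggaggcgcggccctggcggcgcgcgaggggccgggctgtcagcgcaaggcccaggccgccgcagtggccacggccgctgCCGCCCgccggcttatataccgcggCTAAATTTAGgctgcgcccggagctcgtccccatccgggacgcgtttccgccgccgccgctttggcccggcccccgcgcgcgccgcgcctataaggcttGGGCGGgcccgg
KLF4: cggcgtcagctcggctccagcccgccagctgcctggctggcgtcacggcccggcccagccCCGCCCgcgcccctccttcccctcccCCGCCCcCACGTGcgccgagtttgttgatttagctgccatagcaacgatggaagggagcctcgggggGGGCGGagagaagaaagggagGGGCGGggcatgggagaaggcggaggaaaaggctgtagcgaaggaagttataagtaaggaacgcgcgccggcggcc
KLF6: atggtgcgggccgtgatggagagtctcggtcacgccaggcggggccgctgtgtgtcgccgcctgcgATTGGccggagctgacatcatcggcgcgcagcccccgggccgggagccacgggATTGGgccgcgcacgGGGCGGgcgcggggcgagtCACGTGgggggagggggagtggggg
KLF11: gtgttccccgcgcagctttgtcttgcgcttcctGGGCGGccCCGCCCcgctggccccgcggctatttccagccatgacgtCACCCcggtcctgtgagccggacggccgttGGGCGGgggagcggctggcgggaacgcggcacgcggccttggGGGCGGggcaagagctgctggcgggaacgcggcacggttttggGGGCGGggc

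No 2 capitalised matches overlap in these stretches. The GC box GGGCGG, a letter pattern that KLF and SP proteins bind, occurs 4 times in the KLF2 stretch, 4 times in KLF4, 1 time in KLF6 and 5 times in KLF11. Over full windows of 250 bases it was in 8 of the 15 windows of the members and in 42.6% of all 35116 RefSeq windows. The KLF2 stretch holds 1 match to the MEF2 consensus, 120 bases before the start, a motif present in 2.80% of all windows and, among the other members, only in 1 window of KLF12. The hexamer CACGTG, the E-box that MYC and its relatives bind, was in 4 of the 15 windows (6.34% of all). These belong to KLF4, KLF6, KLF7 and KLF11, and the KLF11 match is in the window that is not printed. CACCC was in 6 of the 15 windows (54.7% of all) and CCAAT in 6 (32.0% of all). The TATA box TATAAA was in 0 of the 15 windows (10.7% of all), as were the FOXO-type site TGTTTAC (2.98% of all) and the AP-1 site TGACTCA (4.20% of all). A missing match says only that these letters are not in the windows. The CArG box, bound by SRF, was in 1 window of KLF7 and in 1.16% of all.

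KLF2, which keeps lymphocytes quiescent, was nearly silent with DMSO. It had 5 and 7 reads in the DMSO libraries (0.31 and 0.41 CPM) and 45 and 49 reads with MZ1 (3.18 and 3.54 CPM). Both MZ1 libraries lay far above both DMSO libraries. The log2 fold change was 3.19 ± 0.42 (SE; edgeR adjusted p = 1.7e-07), and the ratio of summed, normalised reads was 9.33 with an exact 95% counting interval of 5.10 to 18.7. Its gene (ENSG00000127528; chromosome 19, 16324817 to 16327874, GRCh38) shares no annotated exonic base with another gene. KLF2 missed the stricter filter of 50 reads in 2 libraries, so it has no value there.

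KLF4, an activator and repressor known from epithelial differentiation and from reprogramming to pluripotency, and a growth inhibitor in lymphocytes, went the other way. Its reads were 99 and 91 with DMSO (6.05 and 5.37 CPM) and 13 and 25 with MZ1 (0.92 and 1.81 CPM). The groups did not overlap, and the MZ1 libraries differed more, relative to their mean, than the DMSO libraries. The log2 fold change was −2.06 ± 0.30 (edgeR adjusted p = 7.12e-07), and the summed reads were 4.198-fold lower with MZ1, with a 95% counting interval of 2.95 to 6.11. Without MZ1 replicate 1 the change was −1.65 and without MZ1 replicate 2 it was −2.62. The gene (ENSG00000136826) lies on chromosome 9, 107484852 to 107490482.

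KLF6, a widely expressed factor induced in injury and early growth responses, rose in each MZ1 library. Its levels were 48.8 and 51.7 CPM with DMSO and 111 and 104 CPM with MZ1. The groups did not overlap. The log2 fold change was 1.09 ± 0.06 (edgeR adjusted p = 7.02e-15; ENSG00000067082, chromosome 10, 3775996 to 3785281). KLF7, its closest relative, known from neuronal development and highly conserved in the fingers, rose by almost the same factor from a lower level. It went from 11.0 and 11.3 CPM to 23.6 and 22.0 CPM, a log2 fold change of 1.04 ± 0.12 (edgeR adjusted p = 1.86e-08). The intronic transcript KLF7-IT1, annotated on the same strand inside KLF7 (chromosome 2, 207074137 to 207167267), had 4 and 4 reads with DMSO and 13 and 16 with MZ1 and was called higher too (edgeR adjusted p = 0.00159), with a ratio of 4.32 and a 95% counting interval of 1.93 to 10.9.

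The CtBP-recruiting members rose modestly. KLF12, a repressor first described at the AP-2alpha gene, had 82.2 and 84.8 CPM with DMSO and 133 and 130 CPM with MZ1. KLF3, which acts in B-cell subset development as a repressor, had 23.6 and 24.8 CPM with DMSO and 33.5 and 34.8 CPM with MZ1. In both genes the MZ1 libraries were the higher ones, and the replicates lay close together. The log2 fold changes were 0.65 ± 0.05 for KLF12 (edgeR adjusted p = 1.21e-11) and 0.49 ± 0.09 for KLF3 (edgeR adjusted p = 2.09e-05). The antisense transcript KLF3-AS1, which covers 4.2% of the exonic length of KLF3, had 10 and 12 reads with DMSO and 12 and 7 with MZ1 (edgeR adjusted p = 0.944), few beside the 387 to 482 reads of KLF3.

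The SIN3-recruiting members split. KLF11, a TGF-beta-inducible repressor also called TIEG2, fell from 32.0 and 28.1 CPM with DMSO to 5.09 and 4.92 CPM with MZ1. The MZ1 replicates were close together and far below the DMSO ones. The log2 fold change was −2.58 ± 0.14 (edgeR adjusted p = 4.38e-15; ENSG00000172059, chromosome 2, 10042849 to 10054836). An antisense gene shares 9.1% of its exonic length. KLF10, also called TIEG1 and likewise induced by TGF-beta, rose from 14.1 and 14.5 CPM to 25.3 and 24.4 CPM, a log2 fold change of 0.80 ± 0.11 (edgeR adjusted p = 3.42e-07). A divergent non-coding gene that starts 562 bases from the KLF10 start (ENSG00000283959) had 0 reads with DMSO and 14 and 24 with MZ1, a rise of at least 15.1-fold over the limit of 3 reads in the DMSO group.

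KLF13, known for driving the chemokine gene CCL5 late in T-cell activation, and KLF9, a target of glucocorticoid and thyroid hormone, changed least. KLF13 was at 121 and 113 CPM with DMSO and 145 and 152 CPM with MZ1, a log2 fold change of 0.34 ± 0.05 (edgeR adjusted p = 1.12e-06) whose call depends on the scaling as given above. KLF9 was at 14.6 and 12.9 CPM with DMSO and 15.9 and 15.0 CPM with MZ1. Its DMSO libraries differed from each other by more than the nearest libraries of the 2 groups did. The log2 fold change was 0.17 ± 0.13 and did not pass the test (edgeR adjusted p = 0.224).

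**Figure D2:**
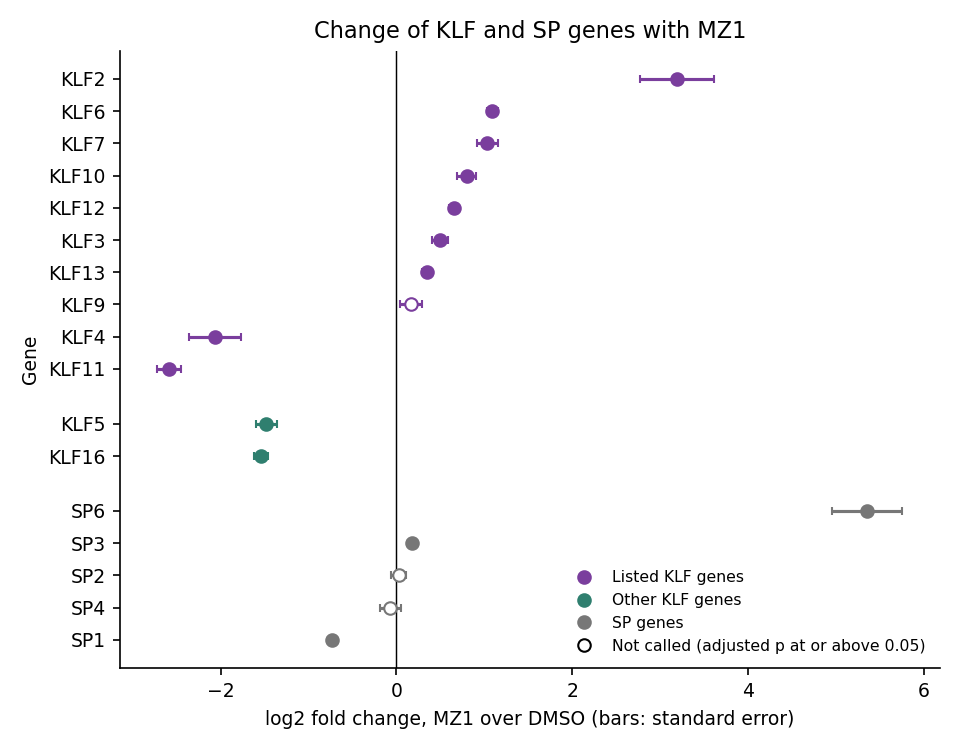
log2 fold change (MZ1 over DMSO) with its standard error for the 10 listed KLF genes, the 2 other KLF genes tested and 5 SP genes, with open points for genes not called. Listed KLF genes run from −2.58 (KLF11) to 3.19 (KLF2), whereas KLF5 and KLF16 lie near −1.5 and SP6, with 6 DMSO reads in all, at 5.36.

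Levels can be ranked between genes only per length, for which TPM was computed from the counts and the exonic length of each gene. With DMSO KLF13 was the most abundant member at 43.0 ± 1.5 TPM (SD, n = 2 per group here and below), followed by KLF6 (28.2 ± 1.5), KLF12 (26.4 ± 0.95), KLF11 (22.6 ± 1.7), KLF3 (13.3 ± 0.65), KLF10 (12.3 ± 0.38), KLF9 (9.16 ± 0.66), KLF4 (5.37 ± 0.38), KLF7 (4.14 ± 0.13) and KLF2 (0.61 ± 0.14). KLF6 and KLF12, and KLF3 and KLF10, differed by less than the sum of their SDs, and the other neighbours in this order by more. With MZ1 the order of levels was KLF6 (48.0 ± 2.6), KLF13 (43.4 ± 1.1), KLF12 (33.1 ± 0.84), KLF10 (17.1 ± 0.56), KLF3 (14.9 ± 0.31), KLF9 (8.20 ± 0.42), KLF7 (6.78 ± 0.38), KLF2 (4.58 ± 0.31), KLF11 (2.998 ± 0.098) and KLF4 (1.02 ± 0.46), and each pair of neighbours differed by more than the sum of its SDs. KLF11 thus moved from the 4th to the 9th place and KLF6 from the 2nd to the 1st. These ranks rest on union exon lengths, which overstate the transcript where long 3′ ends are alternative. They cover the listed members only, so KLF13 was not the most abundant KLF gene with DMSO. KLF16, an other KLF gene, stood above it at 85.0 ± 6.0 TPM with DMSO and was at 23.3 ± 1.1 TPM with MZ1. KLF5, also outside the list, was at 26.3 ± 2.1 TPM with DMSO, close to KLF12.

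Within a library the ratio of 2 genes does not depend on library scaling, so close relatives were set against each other. KLF10 stood to KLF11 at a TPM ratio of 0.51 and 0.59 in the DMSO libraries and of 5.70 and 5.70 in the MZ1 libraries. The balance of these TGF-beta-inducible relatives therefore turned over, with KLF11 ahead in each DMSO library and KLF10 ahead in each MZ1 library. KLF2 stood to KLF4 at 0.09 and 0.14 with DMSO and at 6.28 and 3.55 with MZ1, likewise with the order exchanged, although few reads lie behind each ratio. The other relatives kept their order in the 4 libraries. The ratio of KLF6 to KLF7 was 6.70 and 6.92 with DMSO and 7.07 and 7.10 with MZ1, that of KLF3 to KLF12 was 0.50 and 0.51 against 0.44 and 0.47, and that of KLF9 to KLF13 was 0.22 and 0.21 against 0.20 and 0.18. With 2 libraries against 2 an exact two-sided permutation test cannot give a p below 0.333, so these ratios were not tested.

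**Figure D3:**
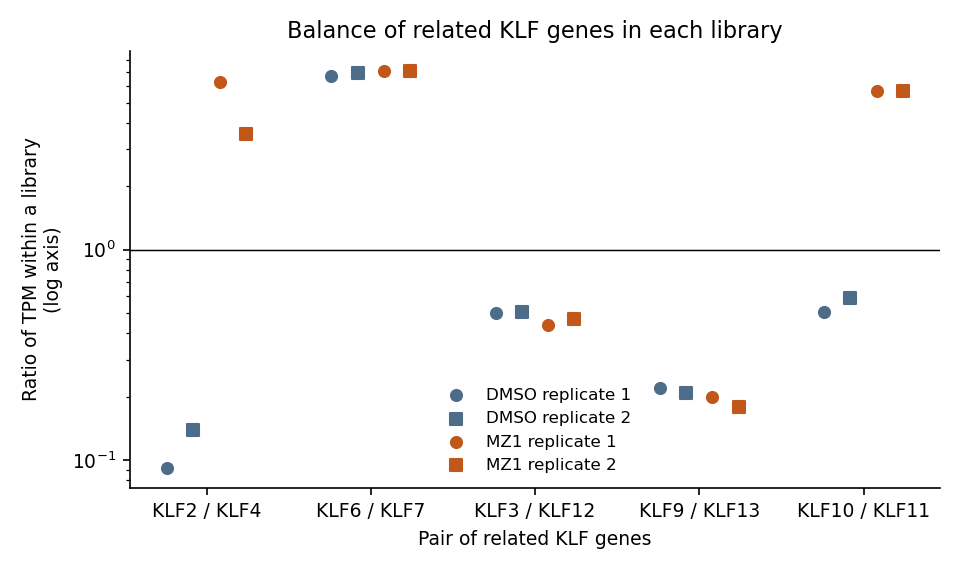
Ratio of the TPM values of 5 pairs of related KLF genes within each library, on a log axis, with 1 point per library and a line at 1. The KLF2 to KLF4 and KLF10 to KLF11 ratios lie below 1 in the DMSO libraries and above 1 in the MZ1 libraries, and the other 3 pairs stay on 1 side.

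The summed level of the 10 members was 165.3 and 164.6 TPM with DMSO and 182 and 178 TPM with MZ1, 1.09-fold higher with MZ1. Measured as TMM-normalised CPM per kilobase the same sum was 1.37-fold higher, the difference between the 2 values being that of the scaling. The make-up of the sum, which needs no scaling between libraries, changed more clearly. KLF11 held 14.4% and 13.0% of it with DMSO and 1.69% and 1.64% with MZ1, and KLF4 held 3.41% and 3.10% against 0.38% and 0.76%. KLF6 held 16.4% and 17.8% with DMSO and 27.4% and 25.9% with MZ1, and KLF2 0.31% and 0.43% against 2.40% and 2.69%. KLF13 held 26.0 ± 0.82% with DMSO and 24.1 ± 0.96% with MZ1.

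**Figure D4:**
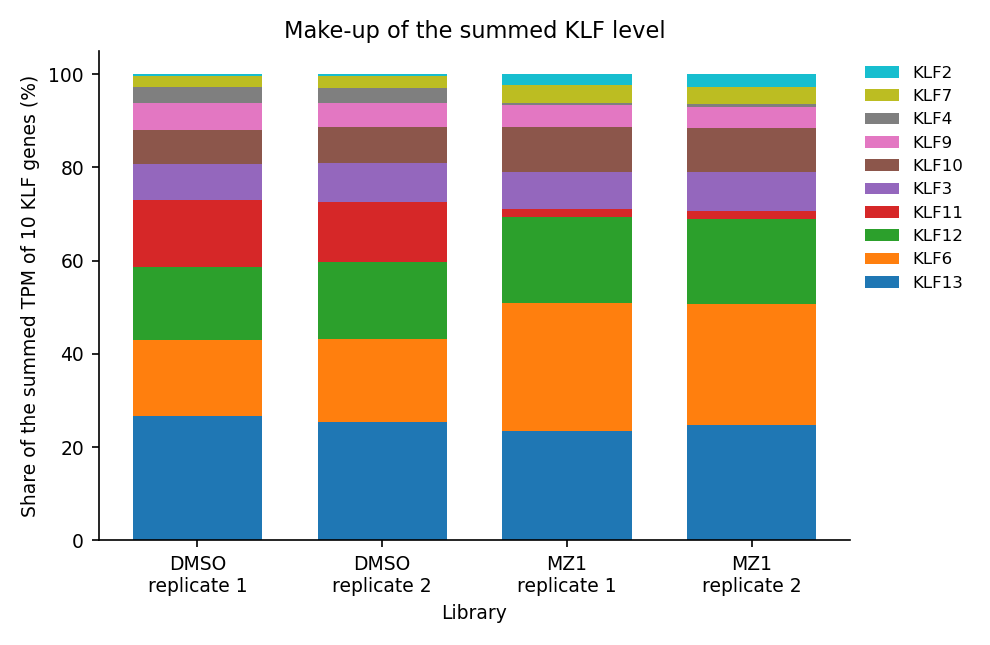
Share of each KLF gene in the summed TPM of the 10 genes, as stacked bars that start at 0 for the 4 libraries. The KLF11 band shrinks from 13.7% to 1.66% on average and the KLF6 band widens from 17.1% to 26.7%.

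The listed members are not the whole family. Of 8 further KLF genes, 3 had a row and 2 were tested, and both fell. KLF16, a SIN3-recruiting relative of KLF9 and KLF13, had 69.9 and 75.8 CPM with DMSO and 25.7 and 24.3 CPM with MZ1 (log2 fold change −1.54 ± 0.08), and an antisense gene overlaps 16.3% of its exons. KLF5, a growth-promoting member of the KLF4 group, had 28.3 and 31.1 CPM against 9.62 and 11.6 CPM (−1.48 ± 0.12). KLF1, the erythroid factor, was below the count filter, with 2 and 2 reads with DMSO and 9 and 24 with MZ1, a ratio of 9.83 with a 95% counting interval of 3.49 to 38.2. It passed the filter and was called higher without DMSO replicate 1, DMSO replicate 2 or MZ1 replicate 1, and it was also called higher with no count filter. Over the 13 KLF genes with a row the summed level was 277 ± 7.6 TPM with DMSO and 213 ± 1.6 TPM with MZ1, a ratio of 0.77. The same 13 genes summed with MZ1 to 1.17 times the DMSO level as CPM and to 0.965 times as TMM-normalised CPM per kilobase, so the direction of the sum depends on which genes are counted and on the unit. No row was found for KLF8, KLF14, KLF15, KLF17 and KLF18, which are not analysed here.

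The SP factors share the DNA-binding fingers and compete for the same GC boxes. Of 5 tested SP genes 2 were higher and 1 lower (median log2 fold change 0.03), beside 42.8% and 41.3% of all tested genes. This balance depends on the scaling. With length-corrected totals 1 was higher and 4 lower (median −0.30), beside 5992 and 8180 of all 16862 tested genes. With upper-quartile scaling 3 were higher and 1 lower (median 0.30), beside 8304 and 5880 of all. SP1, the general activator of housekeeping promoters, fell from 156.6 and 154.5 CPM to 93.0 and 94.5 CPM (−0.73 ± 0.05; edgeR adjusted p = 6.25e-13). SP3, its relative that activates or represses, was called higher at 0.18 ± 0.05, but it turned to −0.15 with length-corrected totals and lost its call without DMSO replicate 2 (edgeR adjusted p = 0.234). SP6, a factor of tooth and skin development, rose from 2 and 4 reads to 122 and 94 reads, a ratio of 42.9 with a 95% counting interval of 19.4 to 118. SP2 (0.03 ± 0.09) and SP4 (−0.07 ± 0.12) were not called. With length-corrected totals both were called lower (SP2 −0.30, SP4 −0.40), and SP2 was called higher with upper-quartile scaling (0.30) and with the stricter count filter (0.20).

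Genes for the partners of the family moved in both directions. Among SIN3 and HDAC corepressor genes 2 of 9 were higher and 6 lower (median −0.46), a called share near the 84.2% of all tested genes, where 41.3% were called lower. The scaffold gene SIN3A fell 1.79-fold, HDAC2 1.89-fold, RBBP7 1.71-fold, RBBP4 1.37-fold and SAP30 2.74-fold, while HDAC1 rose 1.41-fold and SIN3B 1.23-fold. SUDS3 was called lower by a small step (−0.16 ± 0.07), lost without DMSO replicate 2, MZ1 replicate 1 or MZ1 replicate 2 (edgeR adjusted p = 0.079, 0.0609 and 0.136), and SAP18 was not called (0.06 ± 0.05). Of the CtBP genes CTBP2 was called higher (0.32 ± 0.07, with 34.7% of its exonic length shared with other genes) and CTBP1 was not (0.09 ± 0.05). Among 4 acetyltransferase coactivator genes KAT2A fell 6.52-fold, EP300 rose 1.35-fold, CREBBP was called higher at 0.12 ± 0.04 and KAT2B was not called (0.22 ± 0.13). The CREBBP call was lost without DMSO replicate 1, DMSO replicate 2 or MZ1 replicate 2 (edgeR adjusted p = 0.302, 0.0812 and 0.132), and KAT2B was called without MZ1 replicate 1 (edgeR adjusted p = 0.0186). With length-corrected totals CTBP1, SAP18 and CREBBP were called lower and SIN3B and CTBP2 were not called. In the other direction, CTBP1 (0.36), SAP18 (0.33) and KAT2B (0.50) were called higher with upper-quartile scaling and also with the stricter count filter (0.26, 0.23 and 0.40), and CTBP1 with DESeq2 size factors (0.11).

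Ubiquitin ligase genes tied to KLF turnover, listed with earlier results of these data known, were higher in 5 of 6 cases (median 0.37). Of all tested genes 42.8% were called higher. With length-corrected totals 2 of 6 were higher, beside 35.5% of all tested genes under that scaling. FBXW7, which marks KLF2 and KLF5 for degradation, rose 1.87-fold and ITCH 1.85-fold. SMURF2 (0.43 ± 0.10), WWP1 (0.30 ± 0.08) and VHL (0.16 ± 0.06) were called higher, but with length-corrected totals SMURF2 and WWP1 were not called and VHL was called lower. Without DMSO replicate 2 the calls of WWP1 (edgeR adjusted p = 0.181) and VHL (0.727) were lost, and that of VHL also without MZ1 replicate 2 (0.0719). SMURF1 fell 1.93-fold.

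Genes known to act upstream of KLF2 and KLF4 were higher in 5 of 8 cases and lower in 2 (median 0.56), and the 7 called of 8 are near the 84.2% of all tested genes that were called. With length-corrected totals 4 were higher and 3 lower, beside 5992 and 8180 of all 16862 tested genes, and MAP2K5 was then called lower (−0.36). MEF2C, a MEF2 factor of B cells, fell from 747.5 and 704.6 CPM to 119.6 and 120.6 CPM, or 6.04-fold. MEF2A and MEF2D rose 1.72-fold and 1.59-fold. The ERK5 kinase gene MAPK7, which activates MEF2 factors, fell 2.37-fold, and its kinase gene MAP2K5 was not called (−0.04 ± 0.12). The FOXO genes, whose products switch on KLF2 in lymphocytes, were higher: FOXO1 by 2.41-fold, FOXO3 by 2.01-fold and FOXO4 by 1.37-fold, the last not called with length-corrected totals (0.12) or without DMSO replicate 1 (edgeR adjusted p = 0.134). Beside these, the KLF2 window printed above holds the MEF2 match and no TGTTTAC. Whether any of these changes bears on KLF2 or KLF4 was not tested.

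KLF10 and KLF11 are early targets of TGF-beta, and here KLF10 rose while KLF11 fell. The listed genes of that pathway were higher in 9 of 10 cases (median 0.53) and lower in 0. Of all tested genes 42.8% were higher and 41.3% lower. The list was chosen with earlier results of these data known, so its share cannot test for a rise of the pathway. With length-corrected totals 6 were higher and 2 lower, beside 5992 and 8180 of all 16862 tested genes. SKIL, a SMAD-binding repressor induced by TGF-beta, rose from 15.6 and 13.3 CPM to 149 and 158 CPM, or 10.6-fold. SKI, its relative, rose 3.55-fold and the inhibitory SMAD7 3.68-fold. The ligand and receptor genes TGFB1, TGFBR1 and TGFBR2 rose 1.46-fold, 1.35-fold and 1.44-fold, SMAD4 1.67-fold and TGIF1 1.38-fold. Of these, TGFBR1 and TGIF1 were not called with length-corrected totals. SMAD3 (0.11 ± 0.05) was called higher and SMAD2 (0.01 ± 0.06) was not, and both were called lower with that scaling. The SMAD3 call was lost with any of the 4 libraries left out (edgeR adjusted p = 0.0587, 0.758, 0.0763 and 0.0667).

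Glucocorticoid-induced genes, which KLF9 accompanies in many tissues, were listed together with the glucocorticoid receptor gene NR3C1. Of these 6 tested genes 3 were higher and 3 lower. This is near the 42.8% and 41.3% of all tested genes. PER1 rose 2.11-fold, TSC22D3 (GILZ) 2.23-fold and DUSP1 1.72-fold. FKBP5 fell 1.53-fold, SGK1 3.09-fold and the receptor gene NR3C1 1.42-fold.

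KLF2, KLF4, KLF6 and KLF10 are often counted among immediate early genes. Of 14 tested genes listed as of that kind 11 were higher and 3 lower (median 1.90), beside 42.8% and 41.3% of all tested genes. This list too was chosen with earlier results of these data known, so its share is not a test. JUN rose 22.4-fold, EGR1 19.99-fold and JUND 4.46-fold. FOSL2 fell 11.2-fold and SRF, the factor that drives many of these genes, 1.62-fold. IER3 was called lower (−0.67 ± 0.26), but not without DMSO replicate 2 (−0.37) or without MZ1 replicate 2 (−0.54). Its call was lost with upper-quartile scaling, no count filter and the stricter filter (edgeR adjusted p = 0.157, 0.0783 and 0.066). It was also lost with DESeq2's test (adjusted p = 0.131).

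Among genes reported as KLF targets in other cells 5 of 10 were higher and 3 lower (median 1.24), near the 42.8% and 41.3% of all tested genes. The CDK inhibitor genes CDKN1A, CDKN1B and CDKN1C rose 4.09-fold, 3.21-fold and 3.44-fold. CCL5, the chemokine gene bound by KLF13, had 0 reads with DMSO and 57 and 50 with MZ1, which is a rise of at least 42.5-fold over the limit that 3 reads in the DMSO group would set. CCND1 had 1 and 1 reads with DMSO and 50 and 57 with MZ1, a ratio of 63.7 with a 95% counting interval of 17.2 to 533. Among lymphocyte homing genes controlled by KLF2, ITGB7, an integrin subunit gene, fell 5.16-fold (42.1% of its exonic length is shared with ZNF740), and S1PR1, the receptor gene for lymphocyte exit, was at 1.53 and 0.88 CPM against 2.41 and 1.81 CPM (edgeR adjusted p = 0.0553, against 0.0131 for S1PR1 with upper-quartile scaling and 0.0321 without DMSO replicate 1). The kinase gene BLK fell 7.595-fold, LGALS3 was not called (−0.30 ± 0.34), and FCER2 had 3 reads in each group.

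**Figure D5:**
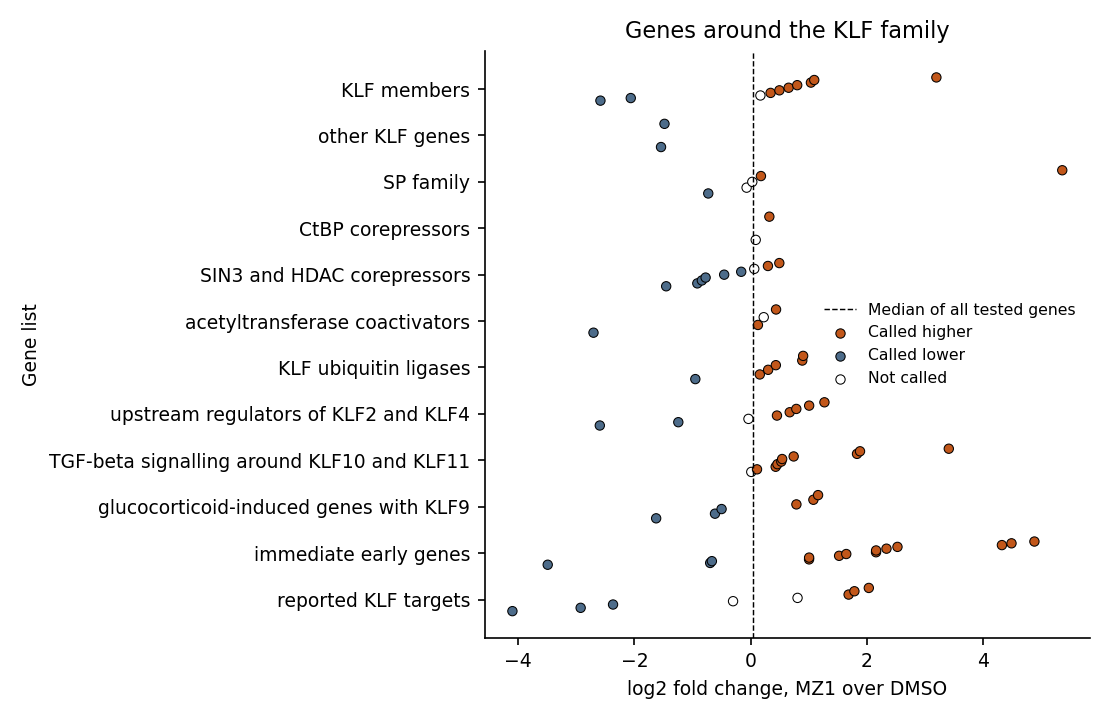
log2 fold change of each tested gene in the KLF list and in 11 lists of genes around the family, with 1 point per gene and the median of all tested genes (0.05) as a dashed line; CCND1 and CCL5 are left out because they had 3 reads or fewer with DMSO. Of the TGF-beta genes 9 of 10 were called higher and of the immediate early genes 11 of 14, beside 42.8% of all tested genes. The lists were chosen with earlier results of these data known, so these shares are not tests. The KLF genes lie on either side of the line.

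The labelled cell type was checked against its markers. All 10 B-precursor markers had reads in the 4 libraries. Their summed level was 2998 and 3021 CPM with DMSO and 1211 and 1254 CPM with MZ1. Each was called lower, from −0.44 (PAX5) to −6.05 (IGLL1) on the log2 scale, where 41.3% of all tested genes were. Of 5 myeloid markers 4 had a row, with a sum of 5.31 to 6.35 CPM with DMSO and 17.2 to 21.1 CPM with MZ1. CD14, LYZ and MPO were called higher and CSF1R lower. Of 5 erythroid markers 4 had a row (0.73 to 1.00 CPM against 3.18 to 3.61) and of 5 T-cell markers 1 (6.90 to 6.96 CPM against 0). Of 5 stromal or epithelial markers 2 had a row (14.6 to 18.8 CPM against 14.6 to 14.9). Of these, PECAM1 was called lower (log2 fold change −2.46) and COL1A1 was not called (0.26). The part of the marked cell types in the KLF changes was not tested.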

How the data were processed

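Counts were analysed for 2 DMSO and 2 MZ1 libraries of 697 cells. The deposited table holds whole-number read counts for Ensembl genes, not normalised, per the file headers and values. Alignment tool and build were HISAT2 2.2.0 and hg38, per the submitters' processing notes. How reads were counted (program, annotation, strand) is not given in the sources used here, and overlapping and antisense genes cannot be told apart. Per the labels' protocols libraries were made with a TruSeq RNA kit from total RNA.

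Symbols came from a gene name table (28597 of 28814 IDs) and positions, exonic lengths and overlaps from GENCODE 29 (GRCh38). In R 4.3.3 with edgeR 4.0.16, genes passing filterByExpr (16862) were scaled with TMM and tested with glmQLFit and glmQLFTest, with treatment as the only term and Benjamini-Hochberg adjustment over all tested genes. The threshold for a call was an adjusted p of 0.05. Levels are TMM-normalised CPM, or TPM to rank genes. For genes with under 50 reads in a group, a ratio of summed reads was computed and is given for the named ones that were called, with an exact 95% (Clopper-Pearson) interval, and genes at 0 are set against a floor of 3 reads over the group. Both cover counting error only. The test was run on simulated counts first.

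The members and the 12 gene lists were chosen with earlier results of these data known. Members are all named. For other lists of up to 10 tested genes every gene is named, except 1 that is counted but not reported here, and otherwise up to 3 per direction with the smallest adjusted p. Replicates differed by more than sampling noise (chi-square over its degrees of freedom was 2.08 between DMSO and 1.96 between MZ1 libraries), so each counts as 1 library. Alternatives covered scaling, filter, test (DESeq2 1.42.0, limma 3.58.1), a replicate block and each library left out.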

Additional observations from a re-analysis of the deposited data

How the results depend on the processing

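Among the members 124 of 129 values under the alternatives kept their direction and their side of the threshold. The exceptions are KLF9, called higher with upper-quartile scaling (0.44) and with the stricter count filter (0.34) and turned to −0.16 with length-corrected totals, and KLF3 and KLF13, not called with length-corrected totals. That alternative was chosen after seeing the data. DESeq2 size factors, library totals only, no count filter, DESeq2's test, limma-voom and each left-out library also gave 7 members higher and 2 lower. The summed level, 1.09-fold higher with MZ1 in TPM, was 1.16-fold higher with the longest transcript as length, 1.41-fold as CPM and 1.37-fold as CPM per kilobase, and 1.08 to 1.10-fold with 1 library left out. The replicate block gave 7 members higher and 2 lower, and 7107 genes higher and 6856 lower in place of 7222 and 6969. Same-numbered libraries did not deviate together (correlation 0.01), so the numbers pair nothing that can be seen.

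Of 882 values of 68 other list genes, 798 kept their direction and their side of the threshold and 28 turned direction. Among the genes that turned were CTBP2, SIN3B and WWP1, which were called higher with TMM. With upper-quartile scaling SP4 was at 0.20, SUDS3 at 0.11 and MAP2K5 at 0.23, and with the stricter filter at 0.10, 0.0078 and 0.13. With library totals only SP2 was at −0.049, SAP18 at −0.015 and SMAD2 at −0.067, and with no count filter at −0.050, −0.016 and −0.067. With length-corrected totals SP2 was at −0.30, SP3 −0.15, CTBP1 −0.24, CTBP2 −0.0053, SIN3B −0.030, SAP18 −0.265, CREBBP −0.20, KAT2B −0.10, WWP1 −0.026, VHL −0.17, SMAD2 −0.32 and SMAD3 −0.22. With 1 library left out SP2 ranged from −0.074 to 0.046, MAP2K5 from −0.19 to 0.037 and SMAD2 from −0.073 to 0.014. All fold changes shifted by a median of 0.17 with the stricter filter. TMM factors were computed anew on the genes this filter kept, so its calls also depend on the scaling. Other causes of the shift were not tested. Depth limits KLF2, with 12 DMSO reads, and KLF4, with 38 MZ1 reads.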
